A study of Homo sapiens with 6 samples.

Results

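Antisense long non-coding RNAs named after the gene on the opposite strand were set beside that gene in HCT-8, an established cell line from a human colorectal adenocarcinoma. The pairs were taken from the array annotation by symbol: a gene whose symbol ends in -AS and 1 digit, SOCS2-AS1 left out, was kept where the gene named before -AS also had a feature on the array. This gave 314 pairs, made of 314 antisense RNAs and 302 sense genes (11 sense genes had more than 1 antisense RNA), among 14884 genes tested. Another 165 antisense RNAs of that naming had no feature for their sense gene. Total RNA had been hybridised to 6 Affymetrix arrays, of which 3 carry the label TRIB3-shRNA and 3 the label Control-shRNA. Both groups were pools of HCT-8 cells transfected with a hairpin plasmid (a short hairpin RNA against TRIB3, or a control hairpin) and kept in hygromycin for 14 days from 24 hours after transfection, and neither was cloned. The labels do not say whether the arrays of a group are separate cultures, so the p-values reflect the scatter among these arrays alone, possibly no more than a technical one.

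An antisense RNA is transcribed from the strand opposite to a neighbouring or overlapping gene. Such RNAs can arise from a promoter region shared with the sense gene and fired in both directions, from inside the sense gene, or from beyond its end. Some are known to raise or lower the sense gene's transcription, splicing or RNA stability, some act on distant genes, and for most no role is established. They are mostly nuclear and often scarce, in part because the nuclear RNA exosome degrades many of them.

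The symbols were checked against RefSeq, assembly GRCh38.p14. Of the 314 antisense genes 310 were annotated as lncRNA and 4 as antisense RNA, and the sense gene was protein-coding in 313 pairs. The spans of both partners overlapped in 275 pairs. RefSeq's promoter table listed a start for both partners of 218 pairs, and in all 218 the partners lay on opposite strands. In 82 of these the nearest starts lay within 1 kb of each other, in 128 the starts were farther apart but the spans overlapped, and in 8 the spans lay apart. The label protocol names single-stranded cDNA but does not state that the strand is kept, so signal of a pair that shares transcribed sequence may not be separate.

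Stretches upstream of the annotated starts (RefSeq, GRCh38.p14) are shown for the pairs on which the results turn, written 5′ to 3′ on the strand of the named gene and ending at the base before its start. The first 3 belong to the antisense RNAs that fell together with their sense gene: PAXIP1-AS2 (chr7:154928267-154928516, plus strand), THUMPD3-AS1 (chr3:9396624-9396873, minus strand) and CCDC18-AS1 (chr1:93345812-93345906, minus strand), the last cut where the neighbouring gene DR1 starts on the other strand. STEAP1B-AS1 (chr7:22563087-22563336, plus strand) had the largest fall of any antisense RNA here. STARD4 (chr5:111512536-111512785, minus strand) fell while its antisense partner, which starts nearby, did not pass the test. The last stretch is the whole sequence between the starts of MNX1 and MNX1-AS1 (chr7:157010664-157010856, minus strand), a pair in which neither member passed the test. Capitals mark matches on either strand to CCAAT (bound by NF-Y), to the GC box GGGCGG, to the TATA box TATAAA, and to CCGGAAG, a site of ETS factors.
PAXIP1-AS2: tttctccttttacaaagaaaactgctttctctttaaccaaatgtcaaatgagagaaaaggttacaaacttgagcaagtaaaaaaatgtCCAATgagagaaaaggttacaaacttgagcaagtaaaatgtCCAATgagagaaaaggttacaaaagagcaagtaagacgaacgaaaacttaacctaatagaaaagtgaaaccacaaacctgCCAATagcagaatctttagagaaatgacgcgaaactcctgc
THUMPD3-AS1: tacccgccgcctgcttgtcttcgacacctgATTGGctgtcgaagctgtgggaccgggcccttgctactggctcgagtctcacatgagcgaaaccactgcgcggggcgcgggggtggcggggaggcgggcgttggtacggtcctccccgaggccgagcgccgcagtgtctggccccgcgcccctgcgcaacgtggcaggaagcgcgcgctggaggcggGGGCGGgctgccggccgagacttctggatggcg
CCDC18-AS1: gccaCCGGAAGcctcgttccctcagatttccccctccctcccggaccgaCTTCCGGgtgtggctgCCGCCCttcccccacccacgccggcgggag
STEAP1B-AS1: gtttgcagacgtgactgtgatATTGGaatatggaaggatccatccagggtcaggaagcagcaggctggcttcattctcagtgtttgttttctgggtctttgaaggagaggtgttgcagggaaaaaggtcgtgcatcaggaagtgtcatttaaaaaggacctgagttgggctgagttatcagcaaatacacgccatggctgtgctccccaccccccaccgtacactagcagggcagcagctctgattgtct
STARD4: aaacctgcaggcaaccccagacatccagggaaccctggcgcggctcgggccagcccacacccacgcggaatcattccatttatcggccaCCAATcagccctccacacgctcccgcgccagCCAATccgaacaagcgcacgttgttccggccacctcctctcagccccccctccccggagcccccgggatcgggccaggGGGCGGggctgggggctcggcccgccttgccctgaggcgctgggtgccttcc
MNX1 to MNX1-AS1: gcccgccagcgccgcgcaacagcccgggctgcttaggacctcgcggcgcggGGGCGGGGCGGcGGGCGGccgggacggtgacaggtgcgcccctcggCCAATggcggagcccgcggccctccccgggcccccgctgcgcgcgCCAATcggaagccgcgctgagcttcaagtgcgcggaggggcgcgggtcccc

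The PAXIP1-AS2 stretch held 3 CCAAT matches and was the poorest in G and C of the 6, at 34.8%. Those of THUMPD3-AS1 and CCDC18-AS1 had 72.0% and 72.6% and each held 1 GC box match. The 95 bases between CCDC18-AS1 and DR1 also held 2 matches to CCGGAAG, overlapping no other motif searched. The STEAP1B-AS1 stretch had 50.4% G and C and 1 CCAAT match. STARD4 had 2 CCAAT and 1 GC box matches, and MNX1 had 2 CCAAT and 3 GC box matches, the first 2 of which overlap by 1 base. Over the 250 bases before all 35116 starts of the RefSeq table, CCAAT occurred in 32.0%, GGGCGG in 42.6%, TATAAA in 10.7% and CCGGAAG in 8.52%. Over 95 bases the shares were 17.4%, 30.5%, 4.83% and 5.47%, and over 193 bases CCAAT occurred in 27.4% and GGGCGG in 39.7%. A match is a description of the letters and no evidence of binding.

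Values are signals on the log2 scale made by RMA (background correction, quantile normalization and probe summary), and each difference is the TRIB3-shRNA mean minus the Control-shRNA mean. Array values are given as replicates 1, 2 and 3 of the group labelled TRIB3-shRNA, against replicates 1, 2 and 3 of the controls. A gene is called where limma's moderated test, Benjamini-Hochberg adjusted over all 14884 genes, gave an adjusted p below 0.05. TRIB3, the gene the hairpin targets, read 8.43, 8.48 and 8.27 against 7.37, 7.14 and 7.48 and was higher under the TRIB3-shRNA label (difference 1.07, limma adjusted p = 0.0041), so it does not bear out the labels, and every direction below rests on them. Array medians ran from 5.62 to 5.70. Of the markers checked, 7 of 10 colon epithelial markers were measured, EPCAM at 10.99 ± 0.06 and 10.83 ± 0.09 (SD, n = 3 each), and of the 7 only CDX1 was called. The fibroblast marker DCN, 1 of 5 on its list with a feature, read 2.29 ± 0.17 and 2.02 ± 0.22, and the monocyte marker CD14, 1 of 4, 3.88 ± 0.25 and 3.69 ± 0.15, below every array's 25th percentile (4.26 to 4.36). Of 3 endothelial markers 2 were measured and neither was called. PECAM1 read 4.36 ± 0.45 and 4.03 ± 0.12, at the 23.0th percentile of mean signal among all genes. VWF read 4.38 ± 0.20 and 4.57 ± 0.15, at the 27.8th, so it was not below the 25th percentile.

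Few antisense RNAs differed between the groups, and their sense genes differed about as often as genes in general. Among the 314 antisense RNAs there were 5 rises and 7 falls, and 302 were not called, so 3.82% were called against 9.64% of all genes. The 302 sense genes had 8 rises and 26 falls, and 268 were not called, so 11.3% were. Over all genes 3.25% were called higher and 6.39% lower. The antisense shares were 1.59% and 2.23%, and the sense shares 2.65% and 8.61%. The median difference was 0.07 over the antisense RNAs and 0.01 over the sense genes, beside 0.04 over all genes. The quartiles of the antisense differences were -0.14 and 0.22, and those of the sense differences -0.29 and 0.18. The arrays of the groups did not overlap for 75 antisense RNAs (23.9%) and 89 sense genes (29.5%), where 32.0% of all genes did not overlap.

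The split between rises and falls depended on the scaling, for these members as for all genes (484 higher and 951 lower in the deposited scaling). With each array centred on its 75th percentile 13 antisense RNAs rose and 6 fell, and 16 sense genes rose and 23 fell, beside 853 and 825 of all genes. Under it the median difference over all genes was 0.14 in place of 0.04. With median centring the counts were 9 and 6 for antisense RNAs, 14 and 21 for sense genes and 659 and 818 for all genes. With quantile normalization they were 7 and 7, 9 and 21, and 543 and 820. With each array's trend against gene span removed they were 2 and 11, 12 and 17, and 492 and 863. The counts also depended on single arrays. Without TRIB3-shRNA replicate 1, 2 or 3 there were 5, 3 and 25 called antisense RNAs, and without Control-shRNA replicate 1 there was 1. Of all genes 3.41%, 2.5%, 18.1% and 1.75% were called in these fits. Without Control-shRNA replicate 2 limma called 0 antisense RNAs and 1.34% of all genes. There 40 antisense RNAs (12.7%) and 19.9% of all genes had an unadjusted p below 0.05, where all arrays gave 61 (19.4%) and 28.8%. For sense genes the counts were 11, 10 and 62 without TRIB3-shRNA replicates 1, 2 and 3, and 5 without Control-shRNA replicate 1 or 2.

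Among all genes the share called rose with signal level. Of the antisense RNAs 135 (43.0%) had a mean signal below the 25th percentile of all genes, against 64 sense genes (21.2%). Below it 3 of 135 antisense RNAs (2.22%), 2 of 64 sense genes (3.12%) and 3.06% of all genes were called. From there to the 50th percentile the shares were 4.96% of 121 antisense RNAs, 4% of 75 sense genes and 6.34% of all genes. From the 50th to the 75th they were 4% of 50 antisense RNAs, 19.6% of 97 sense genes and 13.6% of all genes. Above the 75th lay 8 antisense RNAs, of which 1 was called, and 66 sense genes, of which 10 were called (15.2%, against 15.6% of all genes). Above the median signal 3 of 58 antisense RNAs were called, beside the 13.6% and 15.6% of all genes in those classes. The part of signal level in the lower antisense count was not tested beyond these values.

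**Figure D1:**
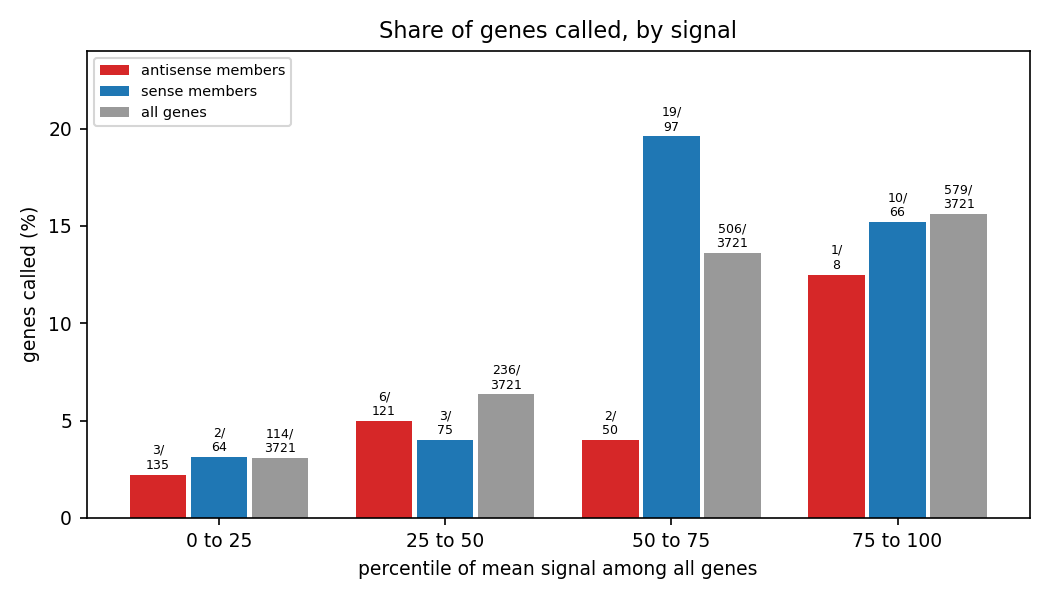
Share of genes called (percent, vertical axis) in 4 equal classes of mean signal among all genes (horizontal axis), for the 314 antisense RNAs (red), the 302 sense genes (blue) and all 14884 genes (grey). The numbers over each bar give the genes called and the genes in that class, and the share of all genes runs from 3.06% in the dimmest class to 15.6% in the brightest.

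In 3 of the 314 pairs both members were called, and in each of the 3 both fell: CCDC18, PAXIP1 and THUMPD3 with their antisense RNAs. Among all genes 951 were called lower and 484 higher. Over the alternatives the number of such pairs ran from 0, without Control-shRNA replicate 1 or 2, to 13 with array weights. Of those 13 pairs 9 had both members in the same direction. PAXIP1, a protein of the DNA damage response that also sits in histone methyltransferase complexes, read 6.91, 7.47 and 7.48 against 8.33, 8.23 and 8.19. It fell by 0.96 (SE 0.17, limma adjusted p = 0.0138). PAXIP1-AS2, on the same stretch of chromosome 7, read 5.32, 5.34 and 5.38 against 6.02, 6.20 and 6.09 and fell by 0.76 (SE 0.12, limma adjusted p = 0.00931). All 3 arrays of each group were separate for both genes, and the antisense values were tight within groups, at 5.35 ± 0.03 and 6.10 ± 0.09 (SD, n = 3). Both genes lie in a run of 371 neighbouring chromosome 7 genes, from ZP3 to DYNC2I1, whose median difference was -0.26, and the part of that run in the pair's difference was not tested.

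CCDC18 encodes a coiled-coil protein, and its antisense RNA starts 165087 bases from it on chromosome 1, next to DR1. CCDC18-AS1 read 3.68, 4.19 and 4.50 against 5.04, 5.38 and 5.12, a fall of 1.05, or 2.08-fold (SE 0.21, limma adjusted p = 0.0193). Its control arrays lay close together and its TRIB3-shRNA arrays were spread, all below them. CCDC18 read 5.84, 5.97 and 6.70 against 7.40, 7.33 and 6.73, and its arrays numbered 3 were nearly level. It fell by 0.98 (SE 0.25, limma adjusted p = 0.0453). THUMPD3, a methyltransferase that modifies transfer RNA, read 6.61, 6.80 and 6.97 against 7.60, 7.48 and 7.19 and fell by 0.63 (limma adjusted p = 0.0396). THUMPD3-AS1, whose start lies 33569 bases away on chromosome 3, read 5.26, 4.96 and 5.36 against 5.94, 5.72 and 5.86 and fell by 0.65 (limma adjusted p = 0.0299). The groups did not overlap for either, which follows in part from both having been called.

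The 6 calls were not equally firm. Without Control-shRNA replicate 2 the adjusted p of PAXIP1-AS2 was 0.0608, its only loss in 17 alternatives. PAXIP1 was lost without Control-shRNA replicate 1 (0.069) or 2, and CCDC18-AS1 without either of these or TRIB3-shRNA replicate 2 (up to 0.093). CCDC18 and THUMPD3 were lost without any 1 of TRIB3-shRNA replicates 1 and 2 and Control-shRNA replicates 1 and 2, and with quantile normalization (up to 0.165 and 0.157). CCDC18 was also lost with the gene span trend removed, which left 2 pairs with both members called. THUMPD3-AS1 was lost without any 1 array other than TRIB3-shRNA replicate 3 (up to 0.126). With the replicate number as a block CCDC18, THUMPD3 and THUMPD3-AS1 were lost as well.

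**Figure D2:**
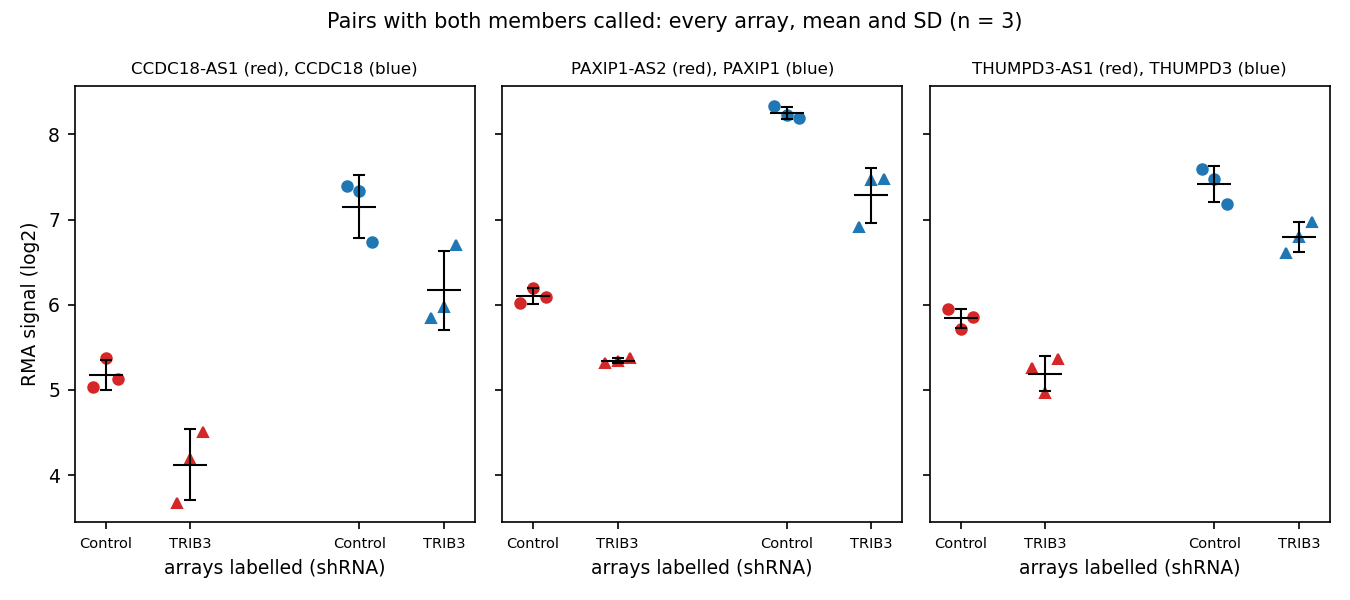
RMA signal (log2, vertical axis) of every array for the 3 pairs with both members called, antisense in red and sense in blue, control arrays as circles and TRIB3-shRNA arrays as triangles, with the mean and SD in black (n = 3). Every TRIB3-shRNA array lies below every control array of the same gene, and for CCDC18 the nearest arrays read 6.70 and 6.73.

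In the other 9 pairs with a called antisense RNA the sense gene did not pass the test. STEAP1B-AS1 had the largest fall, at 3.99, 4.61 and 4.58 against 5.83, 5.89 and 5.19 (2.36-fold, difference -1.24, SE 0.23, limma adjusted p = 0.0163). STEAP1B, a relative of the STEAP metalloreductases, read 3.92, 4.25 and 3.69 against 3.87, 3.53 and 3.90 and differed by 0.19 (limma adjusted p = 0.519), at the 17.4th percentile of mean signal. SVIL-AS1 read 5.89, 5.70 and 5.96 against 6.89, 6.64 and 6.58, a clear gap, and fell by 0.86 (SE 0.14, limma adjusted p = 0.0106). Its partner SVIL, which encodes the actin-binding protein supervillin, read 5.99, 5.96 and 6.16 against 6.28, 6.16 and 5.80 with the groups overlapping (difference -0.04). BCAR3-AS1 fell by 0.61 (4.91, 5.07 and 5.06 against 5.73, 5.52 and 5.60, limma adjusted p = 0.023). BCAR3, a signalling adaptor, differed by 0.25 with overlapping groups. SPATA13-AS1, named for the guanine nucleotide exchange factor gene SPATA13, fell by 0.52 (3.24, 3.43 and 3.32 against 4.05, 3.73 and 3.78, limma adjusted p = 0.0452). It is a dim feature, at the 13.4th percentile of mean signal. SPATA13 differed by 0.05.

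The antisense RNA with the highest signal among those called was MCF2L-AS1, which read 7.47, 7.64 and 7.53 against 6.97, 6.98 and 6.60. It rose by 0.70 (SE 0.14, limma adjusted p = 0.0224). MCF2L, a guanine nucleotide exchange factor with an annotated start 576 bases away, read 5.55, 5.66 and 5.54 against 5.86, 5.77 and 5.54 and differed by -0.14 (limma adjusted p = 0.529). ARHGEF3-AS1 rose by 0.72 (3.64, 3.39 and 3.37 against 2.66, 2.92 and 2.66, limma adjusted p = 0.0191), a dim feature at the 7.89th percentile of mean signal, while ARHGEF3, also a guanine nucleotide exchange factor, read 4.76, 5.22 and 5.51 against 5.39, 5.76 and 5.63 and differed by -0.43 (limma adjusted p = 0.19). CPEB1-AS1 rose by 0.61 (3.93, 3.96 and 3.67 against 3.34, 3.01 and 3.38, limma adjusted p = 0.0392), also at a low level. Its partner CPEB1, which controls polyadenylation in the cytoplasm, differed by -0.03. LINGO1-AS1 rose by 0.60 (4.64, 5.0 and 4.75 against 4.32, 4.11 and 4.16, limma adjusted p = 0.0343) and SH3RF3-AS1 by 0.53 (5.96, 5.69 and 5.85 against 5.23, 5.35 and 5.34, limma adjusted p = 0.0377). Their partners LINGO1, a membrane protein of neurons, and SH3RF3 differed by -0.07 and 0.13. In all 5 of these pairs each TRIB3-shRNA array of the antisense RNA lay above each control array, as in 16.4% of all genes. For these 5 it follows in part from their having been called.

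These 9 calls rested on few arrays. STEAP1B-AS1 and SVIL-AS1 were lost without Control-shRNA replicate 1 or 2 (adjusted p up to 0.0803 and 0.0577). Each of the other 7 was lost without any 1 of TRIB3-shRNA replicates 1 and 2 and Control-shRNA replicates 1 and 2, with adjusted p up to 0.0864 for MCF2L-AS1, 0.0936 for ARHGEF3-AS1, 0.113 for BCAR3-AS1, 0.142 for LINGO1-AS1, 0.152 for SH3RF3-AS1, 0.155 for CPEB1-AS1 and 0.182 for SPATA13-AS1. CPEB1-AS1 was also lost with quantile normalization. MCF2L-AS1, LINGO1-AS1 and SH3RF3-AS1 were also lost with the gene span trend removed. The last 2 were also lost without Control-shRNA replicate 3 or without both arrays numbered 3. SPATA13-AS1 was lost under 11 of 15 alternatives, both centrings and the loss of any 1 array among them.

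Of the 10 called sense genes with the largest differences 9 had antisense RNAs that did not pass the test. The sense gene with the largest difference was BOK, a BCL2 family member that promotes apoptosis, which read 7.86, 7.97 and 7.51 against 6.47, 6.14 and 6.59 and rose by 1.38 (2.61-fold, SE 0.17, limma adjusted p = 0.00365). BOK-AS1 starts 398 bases from a BOK start, and their transcripts cross there. It read 4.85, 5.16 and 5.14 against 4.67, 4.81 and 5.12, with overlapping groups, and differed by 0.18 (limma adjusted p = 0.482). PARD6G, a cell polarity gene, rose by 0.99 (6.19, 6.34 and 6.29 against 5.38, 5.19 and 5.29, limma adjusted p = 0.00365). PARD6G-AS1 read 5.01, 4.54 and 4.90 against 4.73, 4.75 and 4.52 and differed by 0.15. Both lie in a run of 57 neighbouring chromosome 18 genes, from MALT1 to PARD6G, with a median difference of 0.29, whose part in this was not tested.

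Among the falls, SBF2, a catalytically inactive member of the myotubularin phosphatases, read 5.49, 5.76 and 5.98 against 7.30, 7.21 and 6.84 and fell by 1.37 (2.59-fold, SE 0.18, limma adjusted p = 0.0039). SBF2-AS1 read 5.62, 6.27 and 5.26 against 6.09, 5.82 and 5.79, a spread in the former group wider than the difference of -0.18. CFAP418, a cilium-associated gene, fell by 1.36 (5.34, 5.28 and 5.79 against 7.04, 6.98 and 6.45, limma adjusted p = 0.00733), while CFAP418-AS1 read 4.69, 4.99 and 4.63 against 4.74, 4.56 and 4.55 and differed by 0.16. STARD4, which carries cholesterol between membranes, read 5.67, 5.86 and 6.53 against 7.33, 7.50 and 6.82 and fell by 1.20 (SE 0.25, limma adjusted p = 0.0228). STARD4-AS1, whose start lies 309 bases away with the transcripts crossing there, read 5.53, 5.44 and 5.29 against 5.03, 5.26 and 5.29 and differed by 0.23 (limma adjusted p = 0.299), the groups meeting at 5.29. RNF157, a ubiquitin ligase, fell by 1.06 (5.36, 5.10 and 5.17 against 6.30, 6.22 and 6.31, limma adjusted p = 0.00315), with RNF157-AS1 at 0.11.

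ADD3, which encodes the membrane skeleton protein gamma-adducin, fell by 1.11 (5.90, 6.35 and 6.81 against 7.65, 7.65 and 7.08, limma adjusted p = 0.028), and ADD3-AS1 stayed between 5.27 and 5.49 on all 6 arrays. DIAPH3, an actin-nucleating formin, fell by 1.07 (6.34, 6.51 and 7.17 against 7.83, 7.88 and 7.50, limma adjusted p = 0.0219). It has 2 antisense RNAs, which share it as a partner: DIAPH3-AS1 differed by 0.04 and DIAPH3-AS2 by 0.11, both with overlapping groups. EFCAB14 fell by 1.05 from a high level (9.06, 9.48 and 9.68 against 10.55, 10.49 and 10.33, limma adjusted p = 0.0108), with EFCAB14-AS1 at -0.16. In ADD3, DIAPH3 and STARD4 the arrays numbered 3 lay nearest to each other. BOK, PARD6G, SBF2, CFAP418 and RNF157 kept their calls under all 17 alternatives. ADD3, DIAPH3 and STARD4 lost theirs without any 1 of TRIB3-shRNA replicates 1 and 2 and Control-shRNA replicates 1 and 2 (adjusted p up to 0.121, 0.101 and 0.105), and EFCAB14 without Control-shRNA replicate 1 or 2 (up to 0.0608).

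The called sense genes not yet described are listed here after their values were seen. Those that rose were UST, a sulfotransferase that acts on glycosaminoglycans (0.79), the netrin receptor gene UNC5B (0.76), FBXL19 (0.66), C1QTNF1 (0.66), MSC (0.57) and FRMD6 (0.49). The falls ran from -0.96 for CCNT2, a cyclin of the elongation factor P-TEFb, to -0.50 for NAV2. Between them were VPS13A (-0.92), the mitochondrial fusion gene OPA1 (-0.87), ARRDC3 (-0.86), the desmosomal cadherin gene DSG2 (-0.84), RBM12B (-0.83), the Wnt pathway transcription factor gene LEF1 (-0.80), the ephrin receptor gene EPHA1 (-0.78) and WAC (-0.77). ARHGEF26 (-0.73), NEBL (-0.72), LPP (-0.63), the spindle gene SPAG5 (-0.60), RNF213 (-0.58) and OSBPL10 (-0.56) completed them. These values are those of the brightest feature. Dimmer features of NAV2 differed by -0.04 and -0.19, and the dimmer feature of RBM12B by 0.06, so they did not show falls of that size. Over the 34 pairs with a called sense gene and an antisense RNA that did not pass, the antisense differences ran from -0.49 (WAC-AS1) to 0.44 (UST-AS1), with adjusted p from 0.108 to 0.991 in limma. EPHA1 lies in the chromosome 7 run named above. The sense genes that fell spanned a median of 98.4 kb, those that rose 58.6 kb and the others 66.7 kb. Over all genes the difference correlated with gene span across genes with a Spearman coefficient of -0.24 (n = 14883), a description over genes that are not independent. Within the sense genes it was -0.07 and within the antisense RNAs 0.05.

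**Figure D3:**
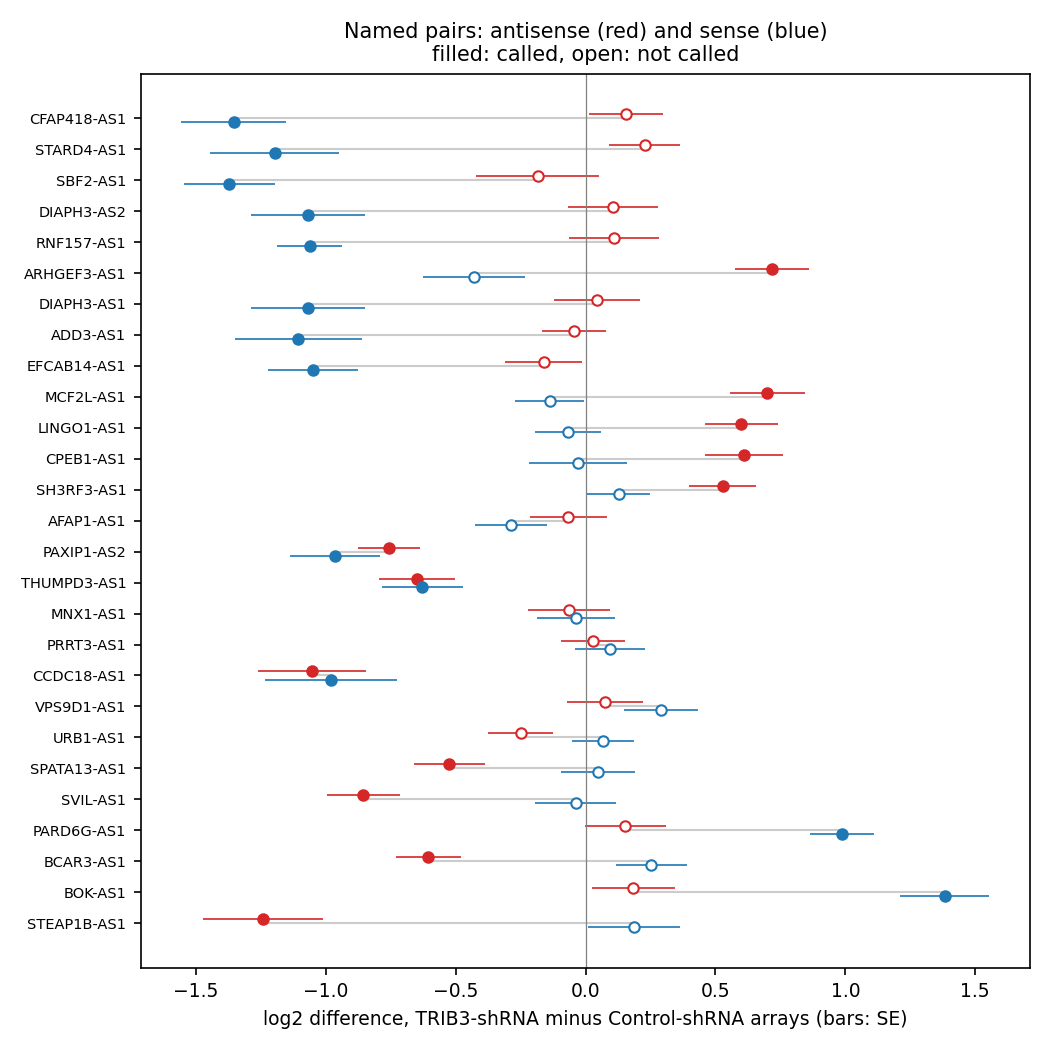
Log2 difference, TRIB3-shRNA minus Control-shRNA arrays (horizontal axis), of the antisense RNA (red) and the sense gene (blue) in the 27 named pairs, with SE as bars, filled where called and open where not. A grey line joins the partners, and the pairs are ordered by the antisense minus the sense difference, from -1.43 for STEAP1B-AS1 at the bottom to 1.51 for CFAP418-AS1 at the top.

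A call in 1 member and none in the other does not show that they differ, so the antisense signal minus the sense signal was taken on each array. Its level carries the unequal brightness of different probes, and what is read is its change between groups. It is given as a description, with no test. For STARD4-AS1 it was -0.14, -0.42 and -1.24 against -2.30, -2.24 and -1.53, without overlap, a change of 1.42. CFAP418-AS1 changed by 1.51 (-0.64, -0.29 and -1.16 against -2.30, -2.42 and -1.91) and SBF2-AS1 by 1.19 (0.13, 0.50 and -0.71 against -1.20, -1.39 and -1.05), and these 3 were the largest rises among pairs with both members above the 25th percentile of signal. The largest falls there were those of BOK-AS1, BCAR3-AS1 (-0.86) and PARD6G-AS1 (-0.83), each with separate groups. BOK-AS1 changed by -1.20 (-3.01, -2.82 and -2.37 against -1.80, -1.33 and -1.46). These pairs were picked by the size of this change, so the separation of their groups follows in part from that choice. Separate groups also occurred in pairs not named, at changes as small as -0.17 for ECE1-AS1.

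For MCF2L-AS1 the antisense minus sense signal was tight within groups, at 1.92, 1.99 and 1.99 against 1.10, 1.21 and 1.07, a change of 0.84. It did not overlap either for SVIL-AS1 (-0.82) or STEAP1B-AS1 (-1.43). These pairs were named because the antisense RNA was called and its partner was not, which favours separate groups. In the 3 pairs with both members called the groups overlapped, which follows in part from both members having fallen. The change there was -0.07 for CCDC18-AS1 (-2.16, -1.78 and -2.20 against -2.36, -1.95 and -1.61), 0.21 for PAXIP1-AS2 and -0.02 for THUMPD3-AS1 (-1.36, -1.84 and -1.61 against -1.65, -1.76 and -1.33).

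Over all 314 pairs the antisense and sense differences had the same sign in 167 (53.2%) and opposite signs in 147. Both were above 0 in 98 pairs and both below in 69, the antisense alone was above 0 in 85 and the sense alone in 62. Across pairs the differences correlated at r = 0.10 (Pearson) and 0.05 (Spearman, n = 314), which is given as a description, since all pairs share the same 6 arrays and 11 sense genes occur more than once. For comparison, neighbouring measured genes along the chromosomes had the same sign in 56.1% of 14858 neighbour pairs, with r = 0.15. The count of pairs depended on the scaling. With each array centred on its 75th percentile 180 of the 314 had the same sign (57.3%), and with the gene span trend removed 175 (55.7%). The neighbour share was not recounted in these settings. Among the 162 pairs with both means above the 25th percentile of signal 88 had the same sign (54.3%). Of the 12 pairs with a called antisense RNA 5 had the same sign, and of the 37 with a called sense gene 19.

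**Figure D4:**
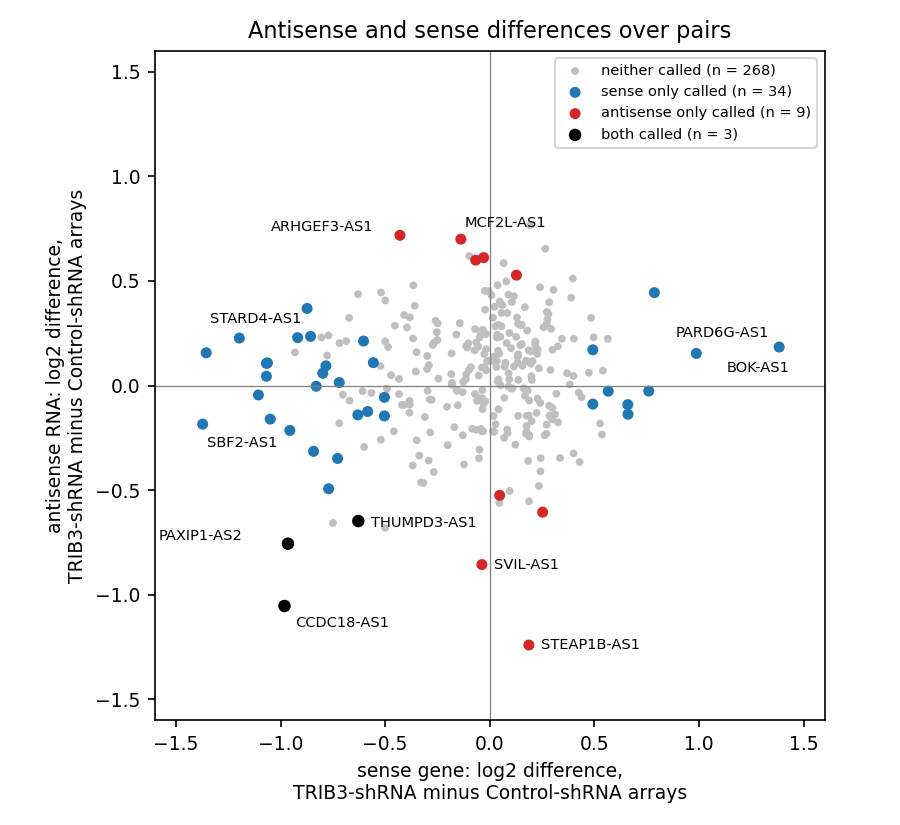
Log2 difference of the antisense RNA (vertical axis) against that of its sense gene (horizontal axis), TRIB3-shRNA minus Control-shRNA arrays, 1 point per pair (314 pairs). Black points are the 3 pairs with both members called, all in the lower left, red the 9 with only the antisense RNA called, blue the 34 with only the sense gene called and grey the rest, with r = 0.10 over all.

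The same count was taken by the layout of the pair on the genome, with no test of the layouts against each other. Of the 82 pairs with starts within 1 kb 42 had the same sign (51.2%), and of the 128 with farther starts and overlapping spans 62 (48.4%). It was 4 of 8 where the spans lay apart and 59 of 96 (61.5%) where a start was not listed. Within the 82, the sign was shared by 25 of 45 pairs whose starts face apart and by 17 of 37 whose transcripts cross at their starts. Called antisense RNAs fell into these layouts as follows. With a start within 1 kb of the sense gene's 3 of 82 were called (3.66%), and all 3 rose (SH3RF3-AS1, CPEB1-AS1 and MCF2L-AS1). With farther starts and overlapping spans 6 of 128 were called (4.69%), 2 higher and 4 lower. With separate spans 2 of 8 were called (25%), both lower. Where a start was not listed 1 of 96 was called (1.04%). Over all genes 9.64% were called. A relation of direction to layout would rest on these few calls and was not tested. PAXIP1-AS2 had no start of its partner listed.

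The 82 pairs with nearby starts held 12 called sense genes, 2 higher and 10 lower, which is 14.6% beside 9.64% of all genes and 11.3% of all sense genes, with no test of these shares. Their antisense partners had adjusted p from 0.146 to 0.958 in limma and differences from -0.49 to 0.24, and 6 of the 12 had the sign of the sense gene. WAC and WAC-AS1, whose starts face apart 425 bases from each other, had the lowest antisense adjusted p of the 12. WAC read 6.68, 7.01 and 7.37 against 7.95, 7.86 and 7.55 (difference -0.77, limma adjusted p = 0.0407) and WAC-AS1 5.84, 6.28 and 6.47 against 6.96, 6.73 and 6.38 (difference -0.49, limma adjusted p = 0.146), with overlap only between the arrays numbered 3 in the latter. CCNT2 and CCNT2-AS1 start 216 bases apart. CCNT2 read 5.62, 5.97 and 6.40 against 7.25, 7.18 and 6.43 and fell by 0.96 (limma adjusted p = 0.0499), and CCNT2-AS1 read 5.04, 5.08 and 5.05 against 5.23, 5.44 and 5.14 and differed by -0.21 (limma adjusted p = 0.302), without overlap between the groups. These pairs were picked out after their values were seen.

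**Figure D5:**
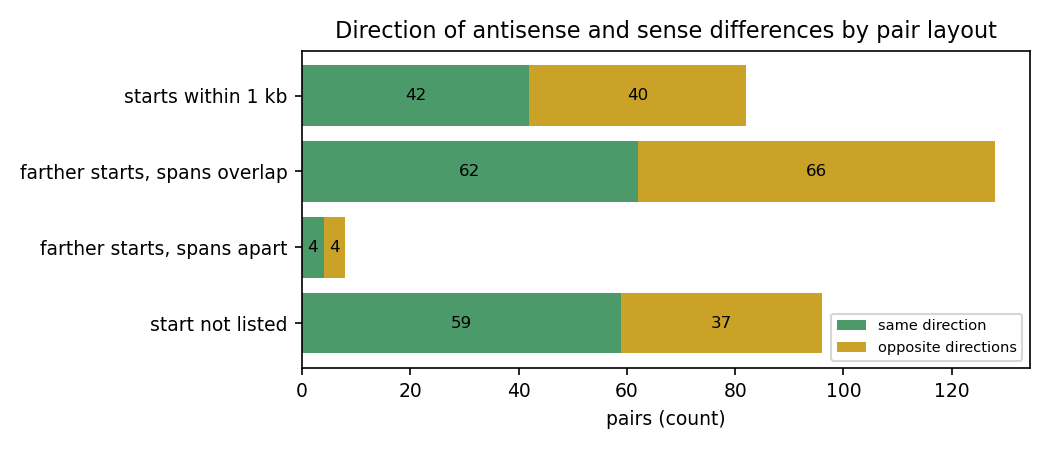
Number of pairs (horizontal axis) whose antisense and sense differences have the same sign (green) or opposite signs (yellow), by the layout of the pair in RefSeq. The counts are 42 and 40 for starts within 1 kb, 62 and 66 for farther starts with overlapping spans, 4 and 4 for separate spans, and 59 and 37 where a start was not listed.

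The antisense RNAs with the highest signal did not pass the test. AFAP1-AS1, an antisense RNA known to be abundant in many carcinomas, read 10.27, 10.63 and 10.73 against 10.60, 10.66 and 10.58 and differed by -0.07 (SE 0.15, limma adjusted p = 0.799). Its signal lay at the 99.3rd percentile of all genes. AFAP1, which binds actin filaments, differed by -0.29 (limma adjusted p = 0.21). MNX1-AS1 read 8.02, 7.91 and 7.53 against 7.86, 7.77 and 8.02 and MNX1, a homeobox gene in the chromosome 7 run named above, 6.77, 6.48 and 6.41 against 6.48, 6.50 and 6.79. They differed by -0.06 and -0.04, with the groups overlapping for both. VPS9D1-AS1 differed by 0.07 and PRRT3-AS1 by 0.03, and their sense genes VPS9D1 and PRRT3 by 0.29 and 0.09. URB1-AS1 read 7.38, 7.51 and 7.29 against 7.58, 7.66 and 7.70, all lower than the control arrays, and differed by -0.25 (limma adjusted p = 0.219). Its partner URB1, a gene of ribosome assembly, differed by 0.07.

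No antisense RNA of the 11 sense genes with several of them was called, where 3.82% of all 314 antisense RNAs were. At that share few or none would be called among so few. The 3 antisense RNAs of ZNF32, a zinc finger gene, differed by -0.24, -0.24 and -0.07, and ZNF32 by 0.19. ZNF503-AS1 and ZNF503-AS2 differed by -0.32 and 0.05 beside 0.40 for ZNF503. The sign for ZNF503-AS1 depended on the feature. Its brightest, at a mean signal of 3.79, gave -0.32, and its dimmer features, at 3.13 and 2.31, each gave 0.30. KIRREL3-AS2 and KIRREL3-AS3 differed by 0.35 and 0.30 beside 0.27 for KIRREL3. The 2 antisense RNAs of FRMD6, which rose, were at 0.17 and -0.09, and those of NAV2, which fell, at -0.06 and -0.15.

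Other long non-coding RNA classes were counted by symbol in the same fit. Of 174 other antisense RNAs, those with no sense feature or with another form of the name, 2 rose and 4 fell (3.45% called, median difference 0.03). Of 99 divergent RNAs (symbols ending in -DT) 4 fell and 95 did not pass the test (4.04%), PAXIP1-DT, named for PAXIP1, among the 4. Of 458 LINC genes 14 rose and 17 fell (6.77%), and of 29 intronic RNAs 3 fell (10.3%). Of 11915 protein-coding genes 413 rose and 847 fell (10.6%). The share below the 25th percentile of signal was 47.7% of the other antisense RNAs, 22.2% of the divergent RNAs, 55.2% of the intronic RNAs, 60.0% of the LINC genes and 18.8% of the protein-coding genes.

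Genes of RNA degradation, of double-stranded RNA binding and processing, and of transcription termination were read from the same fit. Of 16 measured genes of the RNA exosome and its cofactors, DIS3L among them, limma called 0, and the median difference was -0.14. Limma's unadjusted p was below 0.05 for 7 (43.8%), beside 28.8% of all genes. The largest differences were those of the exosome nuclease gene DIS3 (-0.86, adjusted p = 0.0558), the helicase gene MTREX (-0.61, adjusted p = 0.13) and EXOSC4, a subunit of the core (0.58, adjusted p = 0.0542). Of 20 listed genes of double-stranded RNA binding and processing 7 were measured, and of these 1 rose and 1 fell. That is 28.6%, beside 9.64% of all genes, a share that rests on few genes. DGCR8, the partner of DROSHA, rose by 0.47 (limma adjusted p = 0.0449), and EIF2AK2, the kinase PKR that double-stranded RNA activates, fell by 1.16 (limma adjusted p = 0.0142). EIF2AK2 read 7.50, 7.96 and 8.21 against 9.17, 9.25 and 8.73, without overlap. Of 3 measured genes of RNase H and transcription termination limma called 0, with 1 (33.3%) at an unadjusted p below 0.05, beside 28.8% of all genes. Many genes of these lists were not analysed here because no feature was paired with them.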

How the data were processed

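Total RNA of 6 HCT-8 samples, extracted with Trizol and labelled with biotin as single-stranded cDNA per the labels' protocols, was measured on Affymetrix arrays. Per the submitters' processing notes, RMA and Affymetrix Expression Console (version 1.4.1) were used, and the deposited table holds log2 signals. The build behind the array's own annotation is unstated, and scanner files were not used. The number of arrays limits the precision. Groups and replicate numbers came from the sample titles. No pair of arrays shared more than 0.127% of values.

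Of 53617 features 16098 had 1 gene symbol, 0 had several and 37519 had none. All 16098 symbols matched RefSeq (GRCh38.p14) by gene identifier. The brightest feature per gene was kept (14884 genes, 779 with more than 1 feature, among them 16 antisense and 11 sense members). The test was limma's (version 3.58.1, R 4.3.3; lmFit, eBayes, two-sided, group as the only term, no filter), and summaries were made in Python 3.11.15. The steps were tested on simulated data. The members, lists and rule for named genes were chosen with earlier results of these data known. The rule named pairs with both members or the antisense RNA called (up to 15), the 10 called sense genes with the largest differences, the 5 brightest antisense RNAs, and the 3 largest and 3 smallest antisense minus sense differences above the 25th percentile of signal. Alternatives were a replicate block, leaving out each array, quantile normalization, median or 75th percentile centring, filters at the 25th and 50th percentile, an intensity trend, array weights and the mean of a gene's features. Leaving out both arrays numbered 3 and removing the gene span trend (lowess, span 0.3) were chosen after seeing the data. RefSeq's promoter table listed 245 antisense and 251 sense members.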

Additional observations from a re-analysis of the deposited data

How the results depend on the processing

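Leaving out 1 array moved the count of all genes called from 1435 to between 199 (without Control-shRNA replicate 2) and 2696 (without TRIB3-shRNA replicate 3), that of antisense RNAs from 12 to between 0 and 25, that of sense genes from 34 to between 5 and 62, and that of pairs with the same sign from 167 to between 157 and 173. With the replicate number as a block the counts were 402, 4 and 8. Deviations from the group means correlated at -0.20, -0.09 and -0.43 between same-numbered arrays, and at -0.23 to 0.33 between arrays of other numbers. Deviations within a group sum to 0, so these values cannot decide whether same-numbered arrays were handled together. With array weights the counts were 4099, 46 and 84, and without both arrays numbered 3, chosen after seeing the data, 3392, 27 and 70. Centring on the 75th percentile gave 19 antisense RNAs and 180 pairs with the same sign. Above the 25th and 50th percentile of signal fewer pairs were left, and 88 of 162 and 19 of 40 had the same sign. Among the 25 named genes called, TRIB3 included, 19 failed the threshold in 1 or more of the alternatives, all 19 of them in the absence of Control-shRNA replicate 2, 18 in the absence of Control-shRNA replicate 1 and 13 under the block. The other 6 passed in each, and no called gene among the 25 changed sign. Dim features limit what can be seen for the 135 antisense RNAs below the 25th percentile of signal.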
